A study of Mus musculus with 10 samples.

Results

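The genes described here encode the replicative helicase and its closest partners in DNA synthesis: Mcm2, Mcm3, Mcm4, Mcm5, Mcm6 and Mcm7, Pcna, Rrm1, Rrm2 and Tyms. Their probe sets were those to which the platform annotation gives 1 symbol, equal to a listed gene. That rule found 12 probe sets among 12422 that are not controls, and they measured 9 of the 10 genes. Mcm3, Mcm5 and Rrm1 have 2 probe sets each, and the one with the highest mean level stands for the gene. The 2 probe sets that carry the name Tyms also carry a pseudogene's symbol, so Tyms, the thymidylate synthase, is not described.

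The arrays held RNA of primary mouse embryonic fibroblasts isolated at e14.5, of the C57/BLACK6 background with the genotype ATF1 +/-. All groups share that genotype, and no wild-type culture was among them. Near-confluent cultures were held for 48 h in medium with 1% dialyzed serum, and then for 2 h in 10% serum (serum-treated) or again in 1% serum (starved). The study asked how the RNA pool and its use by ribosomes respond early to serum. Cytoplasmic RNA came from cells without cycloheximide, with 1 array for each serum state. A sucrose gradient gave the other pools: undertranslated RNA, with at most 1 ribosome on an mRNA, and polyribosome-associated RNA, with more. Each of these has 2 arrays for each serum state. Gradient cultures received cycloheximide, which halts ribosomes on the mRNA, at 100 ug per ml for 30 min. Replicate 2 of every gradient group came from cultures given 4-thiouridine at 200 uM and 3H-cytidine, which replicate 1 did not receive. Each gradient array carries material pooled from several cultures, so a p-value here reflects how far such pools differ and not how far animals do.

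The 6 Mcm2-7 proteins form a ring that is loaded onto origins of replication in G1 and unwinds DNA ahead of the fork in S phase. Pcna is the sliding clamp that holds the polymerases on DNA, and Rrm1 and Rrm2 are the large and small subunits of ribonucleotide reductase, which makes the deoxynucleotides. In fibroblasts that leave quiescence, these genes are textbook targets of E2F factors, whose transcription rises late in G1, many hours after serum is added.

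E2F factors bind short words in promoters of this kind, so 30-base windows with such words are shown. The search covered RefSeq promoters (GRCm38.p6), from 250 bases before to 50 after the start. It used TTTGGCGC, TTTCGCGC, TTTCCCGC and TTTGCCGC and their reverse complements. Of the 9 measured genes, 8 were matched (Mcm4 was not), and 4 of the 8 held such a word. Counted by promoter, 4 of their 9 held one, against 2.26% of 32851 promoters in the table. Mcm2, Pcna, Rrm1 and Rrm2 held none. The windows below are 5′ to 3′ on the gene's strand, with the word in capitals.
Mcm3: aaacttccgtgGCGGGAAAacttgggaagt
Mcm5: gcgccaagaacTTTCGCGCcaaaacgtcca
Mcm6, distal: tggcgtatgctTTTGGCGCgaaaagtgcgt
Mcm6, proximal: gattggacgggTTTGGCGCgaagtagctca
Mcm7, upstream: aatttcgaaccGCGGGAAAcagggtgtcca
Mcm7, downstream: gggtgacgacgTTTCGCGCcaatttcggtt
The Mcm3 window is chr1:20820275-20820304 on the minus strand, and its word begins at position 20. Positions count from 1 at the RefSeq start that the promoter was cut on, which for Mcm5 and Mcm7 is not the outermost start of the gene. The Mcm5 window is chr8:75109345-75109374 on the plus strand, with the word beginning at position -153. The Mcm6 windows are chr1:128359797-128359826 and chr1:128359734-128359763 on the minus strand, with words beginning at positions -110 and -47. The Mcm7 windows are chr5:138172030-138172059 and chr5:138171849-138171878 on the minus strand, with words beginning at positions -165 and 17, and the other Mcm7 promoter in the table holds no such word. In the Mcm5 window and the distal Mcm6 window a second word overlaps the one in capitals, and Mcm3 holds a further word at position 39. Words of the CCAAT box (CCAAT or ATTGG) were found in all 9 promoters of the 8 genes and in 37.4% of all promoters. A match describes letters in this window and shows no binding.

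The arrays differed widely in brightness between fractions. The 4 polyribosome arrays had median deposited intensities of 45.3 to 54.25, the cytoplasmic pair 19.1 to 19.2, and the 4 undertranslated arrays 5.7 to 8.8. As background, each array's brightest of 19 unspiked controls (bacterial and yeast sequences) was taken. Of the 9 genes, 8 were above it on every cytoplasmic and polyribosome array, and 4 to 7 on the undertranslated arrays. The arrays of a group correlated at 0.968 and 0.969 in polyribosome RNA, but at 0.89 (starved) and 0.792 (serum-treated) in undertranslated RNA. All 13 fibroblast markers examined were above background on the polyribosome and cytoplasmic arrays. Levels below are log2(intensity + 1.5) after quantile normalization of the 10 arrays, and changes were tested with limma at an adjusted p under 0.05 over the 9316 probe sets whose mean level passed a filter.

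**Figure D1:**
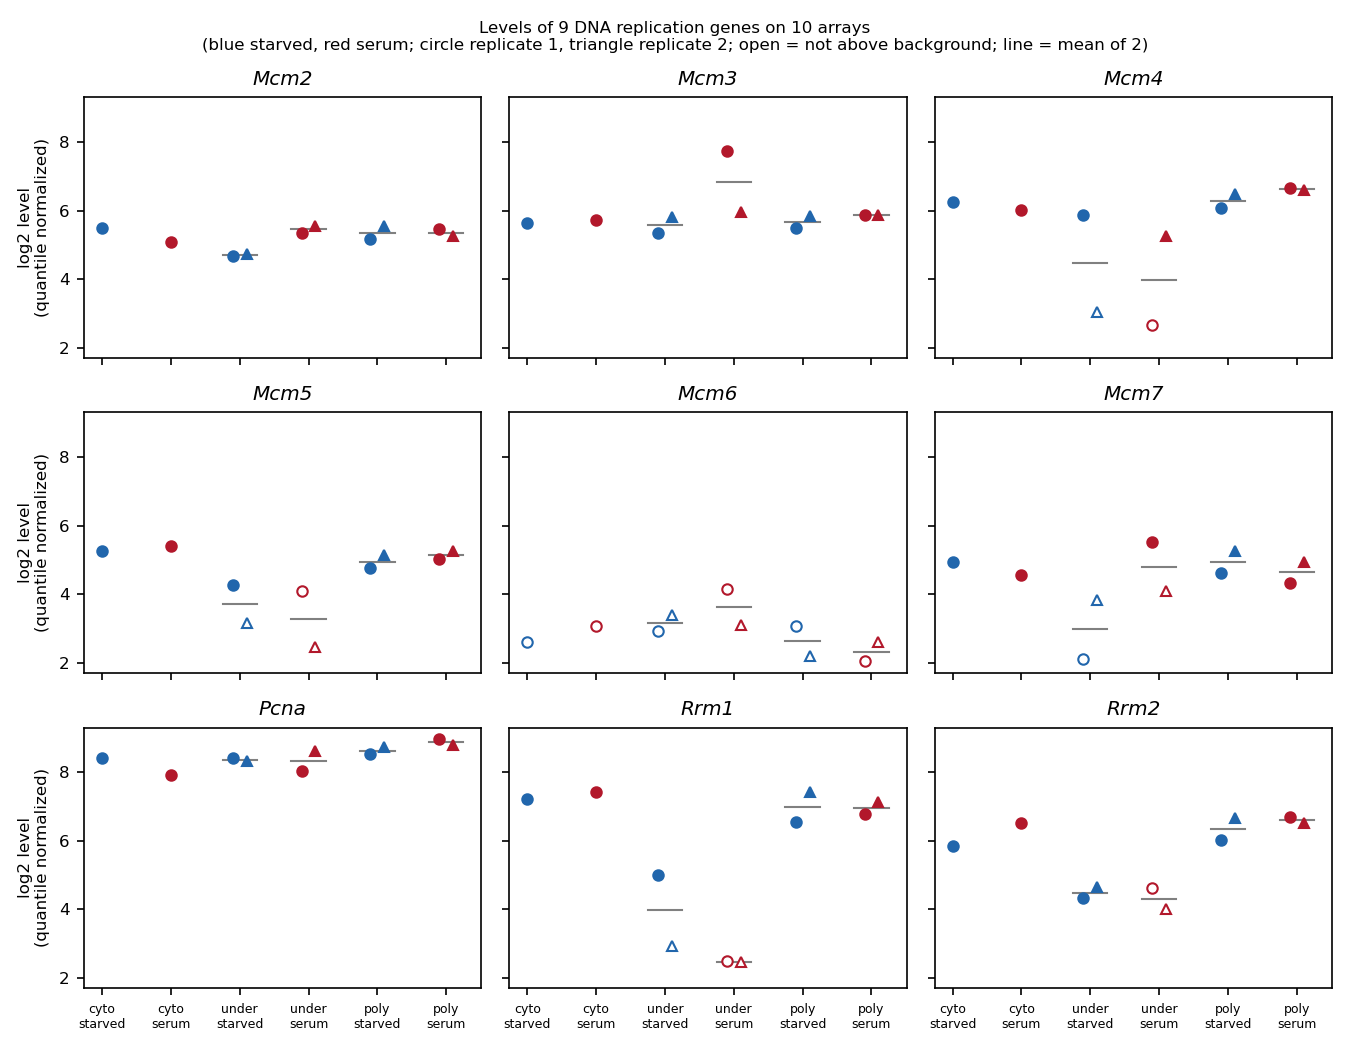
Normalized log2 level (vertical axis) of the main probe set of 9 genes on 10 arrays, by group (horizontal axis; cyto, cytoplasmic; under, undertranslated; poly, polyribosome). Points are arrays, open where the probe set was not above background, and lines are means of 2 arrays; Pcna stays between 7.92 and 8.96 in every group, Rrm1 drops in the undertranslated groups, and Mcm6 is open on all 10 arrays.

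The data show 2 patterns in these genes. A serum response of the mRNAs after 2 h was not detectable: none of the 10 probe sets that passed the filter changed in polyribosome and cytoplasmic RNA, where the shift of every one lay between -0.47 and 0.40 on the log2 scale. Between the fractions, normalized levels of Rrm1, Rrm2, Mcm4 and, on its main probe set, Mcm5 were higher in polyribosome than in undertranslated RNA. The estimates were at least 4.87-fold, 3.58-fold, 2.68-fold and 1.46-fold. This bound allows only for values below background and is no confidence limit. The folds compare levels relative to each array's own distribution, not numbers of molecules. The second Mcm5 probe set was lower in polyribosome RNA, and the differences of Mcm2, Mcm3, Mcm7 and Pcna did not pass the test. In all, 5 of the 10 member probe sets were called in that comparison, a share close to the 54.1% of all probe sets. The 10 probe sets measure 8 genes, and Mcm5 is counted in each direction.

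The first comparison set 3 serum-treated arrays against 3 starved arrays, the polyribosome and cytoplasmic ones, with the RNA pool as a term. It called 83 of 9316 probe sets, or 0.891%, in either direction, and 0 of the 10 member probe sets. No member had an unadjusted p under 0.05, while 1096 of all probe sets did. The lowest adjusted p among the members was 0.527, that of Rrm2. The median of the 10 differences was 0.034, against -0.0096 for all probe sets tested. The 95% intervals of the members reached from -1.07 to 0.89, which is the range of shifts that 3 arrays a side leave room for. In such bulk RNA, fewer cells with an mRNA cannot be told apart from less of it per cell. The 3'/5' signal ratio of Gapdh, which rises as RNA is less intact, was 47.0 (starved) and 28.4 (serum-treated) in cytoplasmic RNA. In polyribosome RNA it was 14.4 and 6.24 starved and 20.9 and 6.11 serum-treated. The part of RNA quality in this comparison was not tested.

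Among the helicase genes, Mcm2 gave deposited intensities of 51.0 (starved) and 33.9 (serum-treated) in cytoplasmic RNA. In polyribosome RNA it gave 110.8 and 130.2 in starved cells and 122.3 and 95.9 in serum-treated cells. The serum-treated and starved values overlap, and the difference was -0.13 ± 0.20 (SE, 3 against 3 arrays, limma adjusted p = 0.847). Mcm3 gave, on its main probe set, 56.6 starved and 56.5 serum-treated in cytoplasmic RNA. On the polyribosome arrays it gave 148.2 and 164.5 starved and 173.6 and 166.5 serum-treated. Both serum-treated polyribosome values were above both starved ones, while the cytoplasmic pair was nearly equal, and the difference was 0.17 ± 0.18 (adjusted p = 0.772). Its second probe set gave 0.02 ± 0.26 (adjusted p = 0.982).

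Mcm4 encodes one of the subunits of the ring's catalytic core, with Mcm6 and Mcm7. Its intensity was 93.9 starved and 71.9 serum-treated in cytoplasmic RNA. On the polyribosome arrays it was 253.2 and 281.1 in starved cells and 337.4 and 307.3 in serum-treated cells. The pools pointed in opposite directions, lower with serum in cytoplasmic RNA and higher in polyribosome RNA, and the difference over both was 0.15 ± 0.20 (adjusted p = 0.833). Mcm7 gave 31.1 and 22.2 in starved and serum-treated cytoplasmic RNA. In polyribosome RNA its intensities were 66.5 and 101.0 starved and 44.6 and 74.0 serum-treated. Each serum-treated array was below its starved partner of the same replicate number, but the groups overlap and the difference of -0.33 ± 0.25 did not pass (adjusted p = 0.659).

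Mcm5 encodes the subunit that forms, with Mcm2, the gate through which the ring opens. On its main probe set it gave 41.5 starved and 43.3 serum-treated in cytoplasmic RNA. Its polyribosome intensities were 76.5 and 90.9 starved and 82.9 and 98.0 serum-treated. The difference was 0.17 ± 0.19 (adjusted p = 0.787). The second Mcm5 probe set was dim, with 13.3 and 9.5 in cytoplasmic RNA, 29.1 and 25.5 in starved and 12.5 and 22.2 in serum-treated polyribosome RNA. Its normalized levels were lower on all 3 serum-treated arrays than on the 3 starved ones, by -0.47 ± 0.27, and this too did not pass (adjusted p = 0.545). It was above background on 1 of the 3 serum-treated arrays. Mcm6 was not above background on any of the 10 arrays, with intensities from 2.8 to 16.0. It did not pass the filter, so it was not tested.

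Pcna, the clamp, was bright on every array. It read 465.2 starved and 307.2 serum-treated in cytoplasmic RNA. On the polyribosome arrays it read 1788.4 and 1525.8 starved and 2023.5 and 1652.5 serum-treated. The cytoplasmic array with serum was the lower of its pair, the polyribosome ones were higher for each replicate number, and the difference over both pools was 0.0038 ± 0.20 (adjusted p = 0.997).

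Of the ribonucleotide reductase genes, Rrm1 read 205.1 and 212.9 in starved and serum-treated cytoplasmic RNA. In polyribosome RNA it read 389.3 and 598.7 starved and 378.6 and 475.5 serum-treated. The values overlap, and the difference was 0.04 ± 0.24 (adjusted p = 0.966). Rrm2, the subunit whose supply is limiting in the cell cycle, read 68.7 and 105.5 in starved and serum-treated cytoplasmic RNA. Its polyribosome values were 237.5 and 325.2 starved and 354.6 and 282.5 serum-treated. Its difference of 0.40 ± 0.22 was the highest of the members but did not pass (unadjusted p = 0.0994, adjusted p = 0.527), and of its 3 pairs of arrays the second polyribosome pair ran the other way, at -0.15. The second Rrm1 probe set was above background on 1 of 10 arrays and was not tested.

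The directions of the small differences depended on the scaling. With each array scaled to the hybridization controls, Mcm3, Mcm4, Mcm5, Pcna and Rrm1 turned below 0, at -0.20, -0.23, -0.19, -0.38 and -0.39, while the median of all probe sets moved to -0.39. With 1 array left out at a time, or under any other setting tried, no member passed; 167 values were computed in all, and the lowest adjusted p was 0.176.

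**Figure D2:**
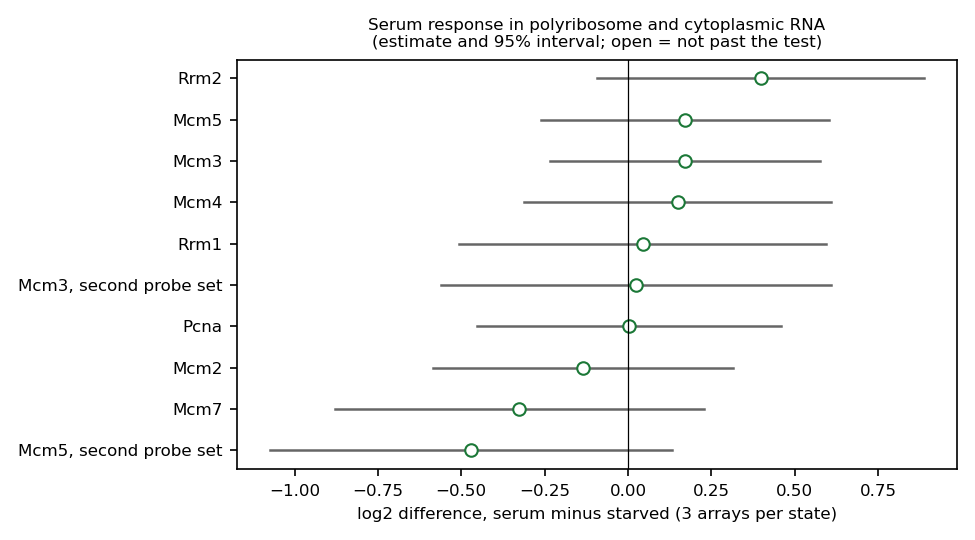
Log2 difference, serum-treated minus starved, over the 3 polyribosome and cytoplasmic arrays of each state, for the 10 probe sets of 8 genes that passed the filter (points, limma estimate; lines, 95% interval). All intervals cross 0, with estimates from -0.47 for the second Mcm5 probe set to 0.40 for Rrm2.

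In the gradient fractions taken alone, serum gave the same answer. In polyribosome RNA, 2 arrays against 2 in the fit over the 8 gradient arrays, 0 of 9316 probe sets passed (0%) and 0 of the members; 160 of all had an unadjusted p under 0.05 and no member did. Member differences ran from -0.48 (second Mcm5 probe set) to 0.34 (Mcm4). With the 4 polyribosome arrays fitted alone, whose spread is smaller, 5 probe sets passed and no member was among them; Mcm4 stood at 0.34 ± 0.24 (adjusted p = 0.934) and Pcna at 0.25 ± 0.22 (adjusted p = 0.962). The cytoplasmic pair, which has no replicate, differed by -0.41 (Mcm2), 0.09 (Mcm3), -0.24 (Mcm4), 0.13 (Mcm5), -0.36 (Mcm7), -0.48 (Pcna), 0.19 (Rrm1) and 0.66 (Rrm2), serum-treated minus starved, on the log2 scale.

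In undertranslated RNA the members were dimmer and the arrays more spread, and 100 of 9316 probe sets passed (1.07%), none of them a member. Of all probe sets 1755 had an unadjusted p under 0.05, and of the 10 member probe sets 2 did. One was Mcm3, with intensities of 13.0 and 19.5 starved against 26.9 and 17.7 serum-treated. After scaling, both serum-treated arrays were above both starved ones, by 1.28 ± 0.55 (adjusted p = 0.264). The other was Mcm7, with 1.5 and 6.3 starved, neither above background, against 9.8 and 6.7 serum-treated, of which the first was above it. Its mean level was 4.81 with serum against 2.98, 2 arrays a side (adjusted p = 0.228), and no fold is given since 3 of the 4 values were not above background. Both values turned on single arrays. Without serum-treated undertranslated replicate 2, Mcm3 rose by 2.16 and Mcm7 by 2.55. Without serum-treated undertranslated replicate 1 they stood at 0.39 and 1.11. Each of these fits sets 1 serum-treated array against 2 starved ones and takes its spread from the other groups. The group left with 1 array was the one whose arrays correlated least (0.792), so p-values are not given here. Counts of calls with 1 array left out are given only as ranges, in the closing section. Which probe sets of the whole array passed also depended on the array left out. The Actb 3'/5' signal ratio, which rises as RNA is less intact, was 137 and 61.4 on the starved undertranslated arrays against 23.6 and 33.9 on the serum-treated ones. The Gapdh ratio was 5.64 and 6.81 against 3.70 and 4.53, and the part of RNA quality in these serum values was not tested.

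The second comparison asked how each mRNA was spread over the gradient. It set the 4 polyribosome arrays against the 4 undertranslated arrays, with the serum states averaged. Levels are relative to each array's own distribution after normalization, so a positive difference marks an mRNA higher in rank among polyribosome RNA than among undertranslated RNA, not a ratio of molecules. Of 9316 probe sets, 28.8% were called higher and 25.3% lower. Of the 10 member probe sets, 4 were higher and 1, the second of Mcm5, was lower. In either direction 54.1% of all probe sets were called, and 5 of the 10 member probe sets is close to that share. Where a probe set was not above background on all undertranslated arrays, the log2 difference rests at least partly on values below it. The fold is then given as a bound ("at least"), with those arrays raised to their lowest level above background. The bound allows only for such values and is no confidence limit. On the log2 scale, the 95% interval of Mcm4 began at 0.63 and that of Rrm2 at 1.38. The Actb 3'/5' signal ratio was 23.6 to 137 on the undertranslated and 11.5 to 21.1 on the polyribosome arrays, and that of Gapdh 3.70 to 6.81 and 6.11 to 20.9. The part of RNA quality in the fraction differences was not tested.

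Rrm1 showed the strongest difference. Its deposited intensity was 389.3, 598.7, 378.6 and 475.5 on the polyribosome arrays, but 10.9 and 3.2 starved and 1.6 and 2.2 serum-treated on the undertranslated arrays. Only the first of these was above background, and no undertranslated value came near a polyribosome one. The normalized difference was 3.75 ± 0.48 (at least 4.87-fold, limma adjusted p = 0.00036, 4 against 4 arrays), and it passed under all 19 alternatives tried, between 3.23 and 6.79. Rrm2 gave 237.5, 325.2, 354.6 and 282.5 in polyribosome RNA and 7.4, 10.2, 6.5 and 6.4 in undertranslated RNA, where the 2 starved arrays were above background. The groups did not overlap, the difference was 2.07 ± 0.30 (at least 3.58-fold, adjusted p = 0.000711), and it also passed under all 19 alternatives, between 1.91 and 5.36. Among the 19, the values as deposited and hybridization control scaling called all 10 member probe sets higher, so passing there does not set a gene apart. The median of all probe sets stood at 3.02 and 3.33 there, and the upper values of 6.79 and 5.36 come from hybridization control scaling.

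Mcm4 was more variable in undertranslated RNA. It read 17.4 and 3.6 in starved and 1.8 and 12.5 in serum-treated undertranslated RNA, so within each state one array was above background and the other was not. Against 253.2 to 337.4 in polyribosome RNA, the difference was 2.24 ± 0.71 (at least 2.68-fold, adjusted p = 0.0262). It passed under 13 of 19 alternatives, including the values as deposited and hybridization control scaling, which called every member probe set higher. The call was lost without any single polyribosome array, without starved undertranslated replicate 2 (1.54, adjusted p = 0.0817) and without serum-treated undertranslated replicate 1 (1.60, adjusted p = 0.057). Without 1 polyribosome array, the estimates were 2.14 to 2.34 and the adjusted p values 0.0613 to 0.0819.

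Mcm5 was read by 2 probe sets that disagreed. On the main one it read 7.2 and 3.9 in starved and 4.8 and 2.2 in serum-treated undertranslated RNA, with the first above background, against 76.5 to 98.0 in polyribosome RNA. The difference was 1.56 ± 0.47 (at least 1.46-fold, adjusted p = 0.021), and it passed under 14 of 19 alternatives, including the values as deposited and hybridization control scaling. It was lost without any single polyribosome array (1.46 to 1.65, adjusted p = 0.0557 to 0.084) and without starved undertranslated replicate 2 (1.27, adjusted p = 0.0632). On the second one, the undertranslated intensities were 11.3 and 10.0 starved and 11.4 and 16.4 serum-treated, all above background, and the polyribosome ones 29.1, 25.5, 12.5 and 22.2, of which 3 were above it. Its normalized level was lower in polyribosome RNA by 1.86 ± 0.33 (a difference of -1.86, adjusted p = 0.00195). With the values as deposited it stood at 0.75 and with hybridization control scaling at 1.06, where the median of all probe sets was at 3.02 and 3.33. Relative to that median it was lower under every scaling, at -1.91 after quantile normalization and -2.27 under the others. The identifier of the second one ends in r_at, by which Affymetrix marks probe sets designed with some rules of probe choice dropped, and which of the pair follows Mcm5 was not tested.

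The other members did not pass. Pcna was read by all 8 arrays above background, at 87.6 and 104.1 starved and 31.6 and 87.9 serum-treated in undertranslated RNA against 1525.8 to 2023.5 in polyribosome RNA, and the normalized difference was 0.41 ± 0.18 (adjusted p = 0.0887). On every array it ranked between the percentiles 91 and 95.7 of the probe sets. Mcm2 read 9.0 and 10.7 starved and 9.1 and 14.4 serum-treated in undertranslated RNA, above background on all 4 arrays, and its difference was 0.29 ± 0.28 (adjusted p = 0.402). Mcm3 stood at -0.43 ± 0.39 (adjusted p = 0.372) on its main probe set, above background on all 4 undertranslated arrays, and at 1.00 ± 0.44 (adjusted p = 0.0812) on its second one, above it on 1. Mcm7 stood at 0.90 ± 0.51 (adjusted p = 0.164), above background on 1 undertranslated array. Without serum-treated undertranslated replicate 2, which leaves 1 array in that group, Pcna stood at 0.56. Mcm3 then stood at -0.88 on its main probe set and at 1.34 on the second.

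**Figure D3:**
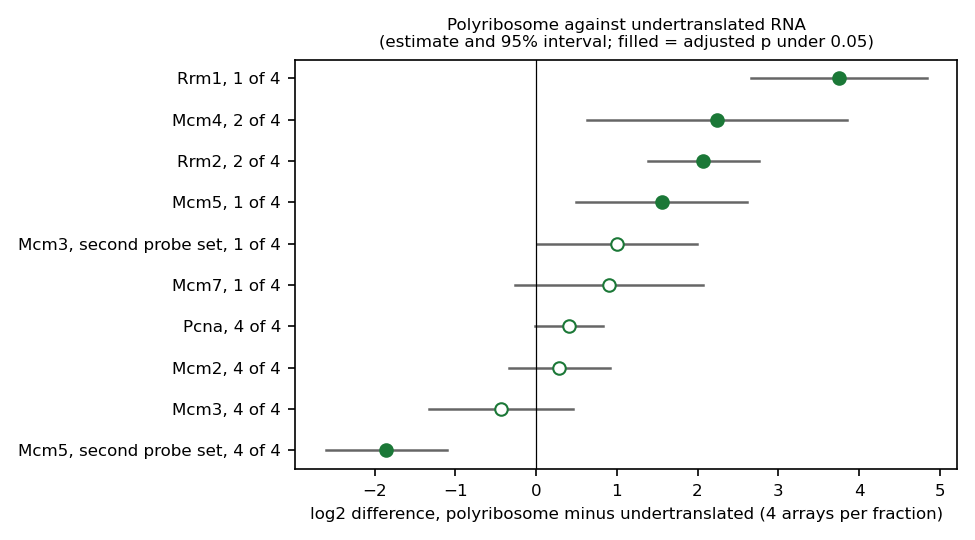
Log2 difference, polyribosome minus undertranslated, over 4 arrays per fraction, for the 10 probe sets that passed the filter (points, limma estimate; lines, 95% interval; filled, adjusted p under 0.05). The last count after each name is the number of the 4 undertranslated arrays with the probe set above background; Rrm1, Mcm4, Rrm2 and Mcm5, all filled to the right, were above it on 1 or 2 of 4.

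The 4 members called higher were above background on at most 2 of the 4 undertranslated arrays. Among the 7745 probe sets above background on all 4 polyribosome arrays, a set chosen after the values were seen, 34.4% were called higher, and 9 member probe sets belong to it. That share fell from 74.8% where no undertranslated array was above background, through 48.8%, 40.7% and 27.8% for 1, 2 and 3 arrays, to 20.9% where all 4 were. Of the member probe sets, 4 had 1 such array (Rrm1, Mcm5, Mcm7 and the second Mcm3), 2 had 2 (Mcm4 and Rrm2), and 3 had 4 (Mcm2, Mcm3 and Pcna). The called members lie in the classes with 1 and 2 arrays, and the part that dimness has in the calls was not tested.

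Scaling moved every one of these values, since it sets how the dim fraction is raised. The median difference of all probe sets was 0.052 after quantile normalization, 0.55 after median centring, 3.02 as deposited and 3.33 with hybridization controls. All 10 member probe sets were called higher in the last pair of settings, and 7 higher and 1 lower with median centring. Taken relative to the median of all probe sets, Rrm1 stood at 3.70 after quantile normalization and at 3.46 under the other scalings. The corresponding pairs were 2.02 and 2.03 for Rrm2, 2.19 and 2.15 for Mcm4, 1.50 and 0.92 for Mcm5 on its main probe set and -1.91 and -2.27 on its second. Pcna went from 0.36 to 1.56, so its distance from that median was the one that depended most on the scaling. Pcna passed with median centring (2.12, adjusted p = 4.34e-05).

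The change of this fraction difference with serum was tested as an interaction, and 0 of 9316 probe sets (0%) and 0 of the members passed; 722 of all and no member had an unadjusted p under 0.05. The largest member shifts were -2.14 ± 1.02 for Mcm7 (adjusted p = 0.669), -1.48 ± 0.66 for the second Mcm5 probe set (unadjusted p = 0.053, the lowest of the members, adjusted p = 0.651) and 1.46 ± 0.95 for Rrm1 (adjusted p = 0.732). Mcm7 was higher with serum in both undertranslated pairs of arrays and lower in both polyribosome pairs. However, Mcm7 and Rrm1 were each above background on 1 of the 4 undertranslated arrays, so their shifts rest mostly on values below it. Without serum-treated undertranslated replicate 2, which leaves 1 array in that group, the main Mcm3 probe set stood at -1.95. The contrast of replicate 2 with replicate 1, which differ by 4-thiouridine and 3H-cytidine as well as by culture, also called 0 of 9316 (0%) and 0 of the members, with 597 of all and no member at an unadjusted p under 0.05. Member differences there ran from -0.54 (Mcm5) to 0.44 (second Mcm3 probe set).

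Polyribosome RNA was also set against cytoplasmic RNA, 4 arrays against 2. Cycloheximide was given to the polyribosome cultures alone, so pool and drug cannot be told apart. The Gapdh 3'/5' signal ratio was 47.0 and 28.4 on the cytoplasmic arrays and 6.11 to 20.9 on the polyribosome arrays. That of Actb was 16.6 and 11.9 against 11.5 to 21.1. The part of RNA quality in the differences between these pools was not tested. This comparison called 2465 of 9316 probe sets, or 26.5%, and 0 of the 10 member probe sets. Of all probe sets 3647 had an unadjusted p under 0.05, and 1 member did. That member was Pcna, with 307.2 and 465.2 in cytoplasmic RNA and 1525.8 to 2023.5 in polyribosome RNA, at 0.60 ± 0.21 (adjusted p = 0.0698). Its normalized levels did not overlap between the pools, but the value rested on the cytoplasmic pair: it was 0.23 without the serum-treated array (adjusted p = 0.652) and 0.96 without the starved one (adjusted p = 0.0566). Mcm4 stood at 0.33 ± 0.22 (adjusted p = 0.295), Rrm2 at 0.29 ± 0.23 (adjusted p = 0.397), Mcm5 at -0.28 ± 0.20 (adjusted p = 0.343) and Rrm1 at -0.36 ± 0.26 (adjusted p = 0.345). The second probe set of Mcm3 stood at 0.50 ± 0.27 (adjusted p = 0.21) and that of Mcm5 at -0.26 ± 0.28 (adjusted p = 0.532), while Mcm2, Mcm7 and the main Mcm3 probe set lay between 0.04 and 0.10. With median centring Pcna passed (0.94, adjusted p = 0.015), and with the replicate number as a block Rrm1 passed in the other direction (-0.66, adjusted p = 0.0417).

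Other genes of replication, from lists chosen with results of these data known, did not pass in the serum comparison either. Of genes that license origins and activate the helicase, 0 of 11 tested passed in either direction, of polymerases, clamp loaders and fork proteins 0 of 28, and of nucleotide synthesis genes 0 of 13. Of E2F, Rb and S-phase entry genes 0 of 13 passed, and of G2 and mitosis genes 0 of 17. Their median differences ran from -0.25 (licensing) to 0.01 (G2 and mitosis). Cdt1, which loads the helicase, stood at 0.68 ± 0.18 (adjusted p = 0.162), and E2f1, an activating E2F factor, at 0.06 ± 0.21 (adjusted p = 0.945). Macrophage markers, by contrast, moved with serum in the same fit, 5 of 10 higher with a median of 1.25, and of 5 endothelial markers tested 1 was higher. The summed intensity of the macrophage list was 1360.8 and 1669.9 on starved and 4100.5 and 5170.3 on serum-treated polyribosome arrays, and 406.7 and 902.8 on the cytoplasmic ones. Of the 12 on the list, 8 to 12 were above background on those 6 arrays, and their part in the members' values was not tested.

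In the fraction comparison the lists were mixed, and their counts stand beside 28.8% higher and 25.3% lower over all probe sets. Of the 8 members tested, by main probe set, 4 were higher and 0 lower, with a median of 1.23. The second Mcm5 probe set, called lower, is left out by that choice. The median was 0.052 over all probe sets. With 1 probe set per gene it was 0.17, and 2113 of 6784 genes were called higher and 1633 lower. Of 28 polymerase, clamp loader and fork genes, 9 were higher and 5 lower (median 0.59). The higher ones were led by Prim2, the large primase subunit (at least 1.25-fold, adjusted p = 0.000249). Next came Rpa2 (at least 1.50-fold, adjusted p = 0.00168) and Rpa1 (at least 3.36-fold, adjusted p = 0.00254), which coat single-stranded DNA. Prim2 and Rpa2 were above background on 0 of 4 undertranslated arrays and Rpa1 on 2. Where 0 were, 74.8% of probe sets above background on all 4 polyribosome arrays were called higher. Of 13 nucleotide synthesis genes, 7 were higher and 2 lower (median 0.72). They included Rrm2b, the alternative small subunit of ribonucleotide reductase (at least 2.68-fold higher, adjusted p = 0.000357), and Tk1, thymidine kinase (at least 2.44-fold, adjusted p = 0.00426), each above background on 1 undertranslated array. Of 11 licensing genes, 2 were higher and 2 lower (median 0.096). Orc2 was called higher (adjusted p = 0.00522) but was above background on 0 of 4 undertranslated arrays, and no bound on its fold is given. Cdc45, a partner of the helicase, was at least 1.16-fold higher (adjusted p = 0.0337), while Cdt1 (-1.18 ± 0.24, adjusted p = 0.00376) and its inhibitor Gmnn (-1.04 ± 0.31, adjusted p = 0.022) were lower, both above background on all 8 gradient arrays. Of 13 E2F, Rb and S-phase entry genes, 3 were higher and 0 lower (median 0.67). Of 17 G2 and mitosis genes, 5 were higher and 3 lower (median 0.79). Among them were Top2a, a topoisomerase (at least 2.29-fold higher, adjusted p = 0.000534), and Cenpa, the centromeric histone (-1.84 ± 0.25, adjusted p = 0.000492). Top2a was above background on 0 of 4 undertranslated arrays. The other 3 scalings differ from each other by 1 constant per array. From quantile normalization they differ by amounts that vary between genes. Cdt1 stood at 0.10 with median centring, 2.57 as deposited and 2.88 with hybridization controls, while Gmnn and Cenpa were above 0 in the last pair of settings. Relative to the median of all probe sets those 3 scalings give the same value for each gene, so they make 1 check and not 3. In that check all 26 higher genes of the 5 lists stayed higher. Of the 12 lower ones 11 stayed lower, Cdt1, Gmnn and Cenpa among them.

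**Figure D4:**
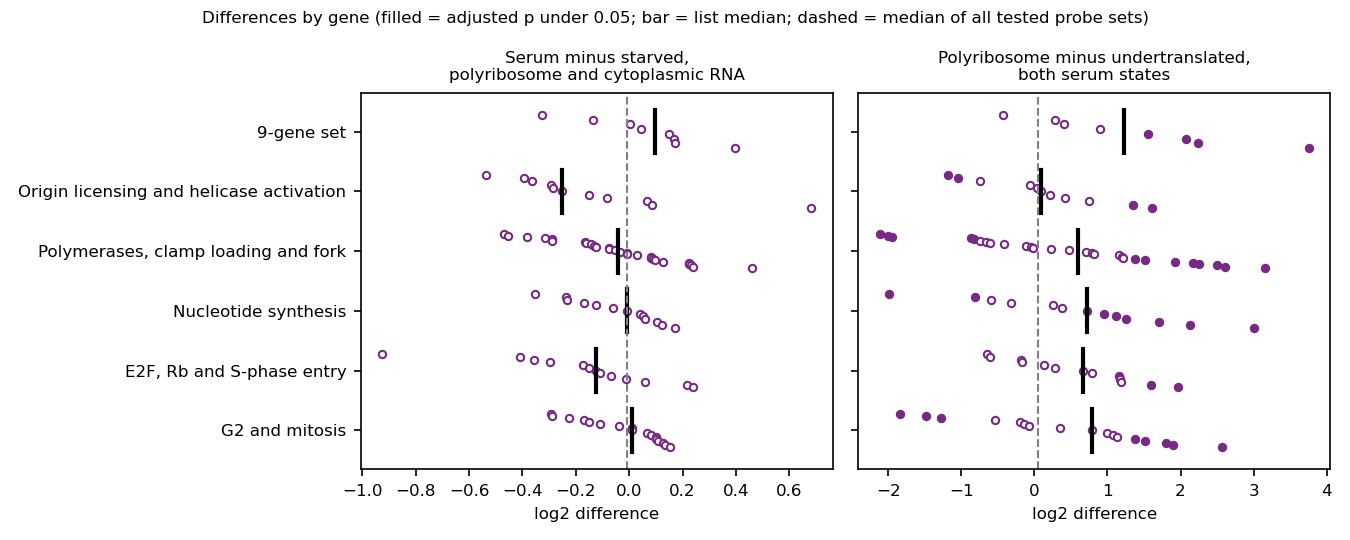
Log2 difference of each gene (points, 1 main probe set per gene; filled, adjusted p under 0.05) by list, for serum-treated minus starved (left) and polyribosome minus undertranslated (right), with list medians (bars) and the median of all probe sets (dashed). No point is filled on the left; on the right the 9-gene set has 4 filled points, all above 0.

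Over the 10 arrays, the members' profiles were only partly alike. Of the 36 pairs of the 9 main probe sets, 23 correlated above 0, with a median Pearson r of 0.256 and a maximum of 0.914, that of Rrm1 and Mcm5. Mcm6 was above background on no array, and without it, a choice made after its values were seen, 21 of 28 pairs were above 0, with a median of 0.316. These are descriptions of 10 arrays that share 3 RNA pools. The mean profile of the 9 genes, each centred on its own mean, ran from -0.92 to -0.38 on the undertranslated arrays and from 0.25 to 0.58 on the others. The 5 genes outside the set with the profile most like it, of 6776 compared, were Lasp1, Pld3, Uqcc2, Adcy2 and Rtcb, with r from 0.980 to 0.986. None of the 5 was above background on any undertranslated array, and 362 genes had an r over 0.9. With Mcm6 left out of the mean profile, Pld3 and Rtcb were again among the 5 most alike, and the others were Pdia5, Tcn2 and Plcd1, so the choice of these names rests on the members averaged.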

How the data were processed

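Amplified, biotin-labelled RNA of 10 cultures or gradient pools was read on Affymetrix arrays, as the labels' protocols describe. The deposited table gives linear intensity, with a single value for each probe set on each array. How the authors summarised probes and scaled arrays is not given in the sources used here. A pseudocount of 1.5 (the value at percentile 10 of the table) was added before log2, which shrinks differences of dim genes, and arrays were quantile normalized over 10 arrays (medians differed by up to 2.953 log2 units). Probe sets with a mean at or below the 25th percentile were left out. limma 3.58.1 in R 4.3.3 was fitted with a variance trend, to 6 polyribosome and cytoplasmic arrays or to 8 gradient arrays. Two-sided p-values were adjusted by Benjamini-Hochberg over 9316 probe sets, with 0.05 as threshold, and the fits were tested on simulated data. A fold written "at least" sets the bright group's mean against, per array, the higher of the dim level and the lowest level above background. Named genes are all member probe sets and, of each other list, up to 4 called genes with the largest difference, of which part is printed. The lower genes of the polymerase and nucleotide lists are named in full, also beyond that rule. Cdt1 and E2f1 in the serum comparison were chosen after their values were seen. Members, lists and tests were chosen with earlier results of these data known. Number 2 marks the labelled cultures in the labels, so a shared number means a shared treatment, and the deviations from group means of arrays with the same number correlated at 0.0167 to 0.0534, and at 0.275 between the polyribosome groups. Intervals are at 95%. The number of arrays limits precision.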

Additional observations from a re-analysis of the deposited data

How the results depend on the processing

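The dim undertranslated arrays and the scaling limit the results. In the serum comparison over polyribosome and cytoplasmic RNA, 24 probe sets passed with no filter, 17 without the variance trend and 152 with the replicate block, in which all 83 were included; leaving out 1 array gave 5 to 115. No member passed under any of these. Rises made up 74.7% of calls in the main setting, 62.7% as deposited and 29.7% with hybridization control scaling. Values that turned sign there were Mcm2 (-0.29 to 0.0019 with 1 array left out), the second Mcm3 probe set (-0.076 as deposited, -0.0078 with median centring, -0.36 with hybridization controls, -0.24 to 0.31 with 1 array left out), Mcm3 (-0.20), Mcm4 (-0.23) and Mcm5 (-0.19) with hybridization controls, and Mcm4 with 1 array left out (-0.022 to 0.34). Pcna turned in the same 4 ways (-0.10, -0.033, -0.38, and -0.12 to 0.25), as did Rrm1 (-0.11, -0.038, -0.39, and -0.18 to 0.31).

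Against cytoplasmic RNA, 7153 probe sets passed as deposited and 352 to 2491 with 1 array left out. The lowest count came without the serum-treated cytoplasmic array, and 1315 passed without the starved one. Members called were 9 as deposited, 1 with median centring and 1 with the replicate block. Turned signs were Mcm2 (-0.16 with hybridization controls, -0.15 to 0.26 with 1 array left out), Mcm3 (-0.083 with hybridization controls), Mcm5 (1.01), its second probe set (0.84) and Rrm1 (1.11) as deposited, and Mcm7 (-0.25 with hybridization controls, -0.0040 with array weights, -0.28 with the replicate block, -0.098 to 0.18 with 1 array left out).

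Between the fractions, 8595 probe sets passed as deposited and 8886 with hybridization controls, and members called were 10 as deposited, 8 with median centring, 10 with hybridization controls and 3 to 8 with 1 array left out. Mcm3 turned (3.03 as deposited, 0.56 with median centring, 3.34 with hybridization controls, -0.88 to 0.0073 with 1 array left out), and the second Mcm5 probe set stood at 0.75 as deposited and 1.06 with hybridization controls. In this pair of settings the median of all probe sets stood at 3.02 and 3.33, so a value above 0 does not show an mRNA above the others. Relative to the median the second Mcm5 probe set stayed lower (-2.27). The replicate block changed no member's call here or in the serum comparisons.

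In undertranslated RNA, the serum comparison called 22 as deposited, 12 with hybridization controls, 0 with array weights, 53 with the replicate block, 0 with the 4 undertranslated arrays alone, and 0 to 2300 with 1 array left out, of which 0 to 2 were members. With 1 array left out, signs turned for the second Mcm3 probe set (-1.28 to 0.081), Mcm4 (-1.91 to 0.91), Mcm5 (-1.27 to 0.39), Pcna (-0.34 to 0.25) and Rrm2 (-0.48 to 0.14). In polyribosome RNA, 5 passed with median centring, 39 with array weights and 5 with the 4 polyribosome arrays alone. The interaction called 0 to 903 with 1 array left out, 0 to 1 of them members. Replicate 2 against replicate 1 called 61 with array weights and 1 with the polyribosome arrays alone. The causes were not tested.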
